A study of Mus musculus with 12 samples.

Results

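The genes of cholesterol and fatty acid synthesis, with their regulators and the liver X receptor (LXR) genes of sterol export, were followed in spleen cells of tumor-bearing mice. They were 33 genes named in a list by function, and the members were taken by symbol from the deposited read count tables. All 33 were present in both tables, among 16805 genes for Ly6G-selected cells and 16954 genes for CCR2-selected cells. All 33 also passed the filter on low counts, so that each was among the 13058 and 13294 genes tested. They were sorted by role into 7 genes of the mevalonate and isoprenoid steps, 11 genes from squalene to cholesterol, 5 regulators and transporters of the sterol-sensing system, 5 genes of fatty acid synthesis and desaturation, and 5 LXR genes.

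All mice were wild type, and the treatment was cryo-thermal therapy (CTT), which freezes and heats a tumor. Cells labelled as neutrophils were pulled from spleen by a PE-coupled antibody to Ly6G, a marker of murine granulocytes, in mice 12 h after CTT (n = 3 libraries) and in tumor-bearing mice without therapy, labelled control (n = 3). Cells labelled as monocytes were pulled by a PE-coupled antibody to CCR2, the receptor that brings monocytes out of bone marrow, in mice given CTT and anti-Ly6G, a treatment usually meant to remove neutrophils (n = 3), and in mice given CTT alone (n = 3), both 5 days after CTT. All monocyte libraries therefore came from treated mice, and monocytes without CTT were not analysed here. The labels call the libraries biological replicates without giving the number of mice in each, and p-values therefore reflect library-to-library spread. Strain, sex, age, tumor and antibody dose are unstated in the labels.

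Cells build cholesterol from acetyl-CoA. The mevalonate steps make isoprenoid units, squalene synthase joins them, and a run of oxidations, reductions and isomerisations turns squalene into cholesterol. Transcription of these enzymes is driven by the sterol regulatory element-binding proteins (SREBPs), membrane-held factors that the escort protein Scap carries out of the endoplasmic reticulum when sterol is scarce and that Insig proteins hold back when it is plentiful. When oxidised sterols accumulate, LXRs raise the exporters Abca1 and Abcg1 and the ubiquitin ligase Mylip, which limits lipoprotein uptake, and they also raise Srebf1 and Scd1. In myeloid cells this pair of programs sets membrane composition and is known to change on activation and on the uptake of dead cells.

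Promoter sequences show what the synthesis enzymes share beyond their function. RefSeq (assembly GRCm38.p6) gave the bases from 250 before to 50 after the transcription start for 26 of the 33 genes, 15 of them sterol synthesis enzymes of the mevalonate and squalene steps. The 250 bases before the start are shown 5′ to 3′ for Hmgcs1 (chr13:119690101-119690350, plus strand), Idi1 (chr13:8885356-8885605, plus strand), Lss (chr10:76531355-76531604, plus strand) and Mvd (chr8:122443423-122443672, minus strand). Idi1 and Lss were low in the Ly6G-selected CTT libraries, Mvd was called in the CCR2-selected cells, and Hmgcs1 held the SREBP motif. Capitals mark the CCAAT box on either strand (CCAAT or its reverse complement ATTGG), a motif of the factor NF-Y, and in Hmgcs1 also the sterol regulatory element core.
Hmgcs1: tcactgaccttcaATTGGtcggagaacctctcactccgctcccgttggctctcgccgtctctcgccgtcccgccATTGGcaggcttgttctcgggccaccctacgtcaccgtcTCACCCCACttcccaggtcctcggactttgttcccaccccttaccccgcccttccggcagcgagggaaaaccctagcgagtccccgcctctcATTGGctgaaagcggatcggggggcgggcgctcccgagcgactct
Idi1: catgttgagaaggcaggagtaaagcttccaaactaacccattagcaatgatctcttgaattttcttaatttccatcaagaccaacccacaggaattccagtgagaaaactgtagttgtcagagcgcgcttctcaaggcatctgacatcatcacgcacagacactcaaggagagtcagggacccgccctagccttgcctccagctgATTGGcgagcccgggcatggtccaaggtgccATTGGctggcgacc
Lss: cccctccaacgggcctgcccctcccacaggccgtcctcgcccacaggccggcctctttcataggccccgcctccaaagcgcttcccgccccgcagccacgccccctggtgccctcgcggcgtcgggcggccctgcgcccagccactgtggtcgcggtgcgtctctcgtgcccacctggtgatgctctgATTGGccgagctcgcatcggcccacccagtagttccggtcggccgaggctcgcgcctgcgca
Mvd: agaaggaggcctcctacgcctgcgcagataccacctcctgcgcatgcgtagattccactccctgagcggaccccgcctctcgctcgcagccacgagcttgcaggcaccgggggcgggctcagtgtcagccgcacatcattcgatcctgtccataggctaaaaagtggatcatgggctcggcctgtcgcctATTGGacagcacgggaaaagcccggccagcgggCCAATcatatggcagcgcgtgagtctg

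A CCAAT box on either strand stood in the 300-base window of 20 of the 26 promoters (76.9%) and of 14 of the 15 sterol synthesis enzymes (93.3%), against 43.0% of the 10249 genes tested in both comparisons that had a promoter sequence. Among other places it lay 45 bases before the start in both Hmgcs1 and Idi1, 62 before it in Lss, and 60 and 27 before it in Mvd, counted at the first base of the match. The GC box GGGCGG, a motif of Sp1 searched on both strands, stood in 80.8% of the member promoters and 93.3% of the sterol enzymes, against 66.5% of the tested genes. The sterol regulatory element core TCACNCCAC, searched on both strands, matched 1 of the 26 promoters, that of Hmgcs1, as TCACCCCAC at 137 bases before the start, and 1.31% of the tested genes. The 7 genes without a promoter sequence, Fdps, Fdft1, Sqle, Stard4, Scd1, Scd2 and Abcg1, could not be searched. A site that differed from the core by a letter, or lay outside the window, was not counted. These are matches of letters in a window and were not set against any binding data.

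Depth was even, with 30942849 to 34935547 counted reads in the Ly6G-selected libraries and 31865982 to 35956571 in the CCR2-selected ones, and a member had at least 69 reads in every library. Marker genes showed mixed cells in both selections. In the Ly6G-selected libraries the 11 neutrophil markers summed to 7293 to 11970 CPM (reads scaled to the size of the library) after CTT and 3902 to 5788 CPM in control. The 10 B cell markers summed to 6460 to 7023 CPM after CTT and to 3140, 7080 and 7903 CPM in control replicates 1, 2 and 3. Control replicate 1 stood apart: its 12 erythroid markers summed to 13750 CPM, against 403 to 867 CPM in the CTT libraries and 768 and 2358 CPM in control replicates 3 and 2, and its 16 cell cycle genes summed to 6088 CPM, against 1123 to 1456 CPM in the CTT libraries and 1378 and 1658 CPM in control replicates 3 and 2. In bulk libraries, fewer cells of a type and less RNA per cell cannot be told apart. No marker of any list was at 0 in any library, and the T cell marker Trac was not in the tables.

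At 12 h after CTT, the sterol synthesis enzymes had lower values in the Ly6G-selected CTT libraries than in control, and the sterol exporters Abca1 and Abcg1 had higher ones, yet none of the 33 genes passed the main test. The test was edgeR's quasi-likelihood F test on counts with Benjamini-Hochberg adjustment over all genes and a threshold of 0.05. It called 0 of the 33 genes higher and 0 lower, against 0.567% of all tested genes higher and 0% lower. By limma-voom it was likewise 0 and 0, against 0.528% and 0%. DESeq2 called Abcg1 higher, against 2.62% of all genes, and Idi1, Fdps, Fdft1, Sqle and Lss lower, against 0.631%. At an unadjusted p under 0.05, 12 of the 33 were lower, against 5.74% of all tested genes, and 1 (Abcg1) was higher, against 8.28%. In 16 of the 33 all CTT libraries lay below all control libraries, which was so for 11% of all tested genes, and in 3 all lay above, against 13.6%. The median log2 fold change was −0.30 over the 33 genes and −0.44 over the 18 sterol synthesis enzymes, against −0.02 over all tested genes.

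**Figure D1:**
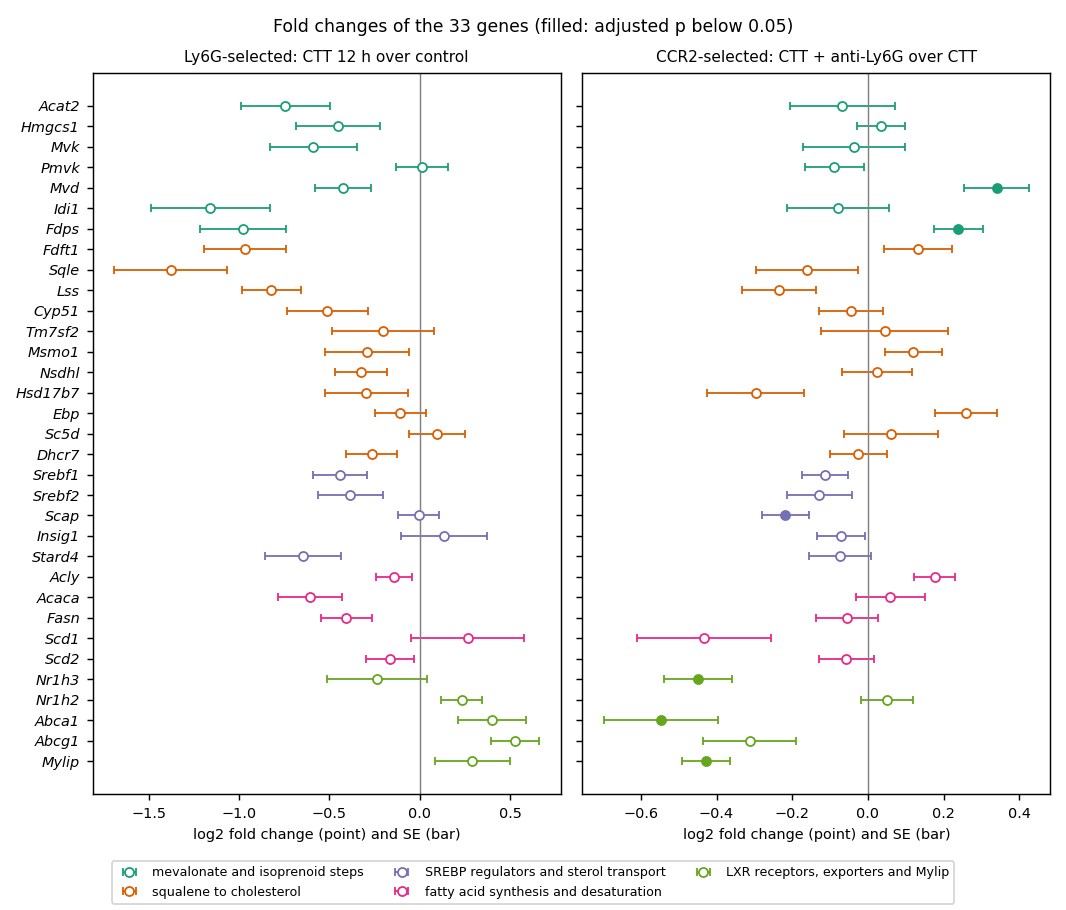
Log2 fold change of each of the 33 genes (horizontal axis) with its standard error, grouped by role, in Ly6G-selected cells (CTT over control) and in CCR2-selected cells (CTT with anti-Ly6G over CTT alone), 3 libraries a group. Sqle has the lowest value in the Ly6G-selected cells, at −1.38, and no gene there passed the edgeR threshold, while 6 genes did in the CCR2-selected cells.

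Among the 7 genes of the mevalonate and isoprenoid steps, 6 had a negative log2 fold change (median −0.59). Of these, 5 were lower without overlap, against 11% of all tested genes, and 5 had an unadjusted p under 0.05, against 5.74%. Fdps (farnesyl diphosphate synthase, chr3:89093588-89101967) had the smallest p of the group. It stood at 18.2, 20.8 and 23.7 CPM in CTT replicates 1, 2 and 3, against 55.8, 31.8 and 35.8 CPM in control replicates 1, 2 and 3. All CTT libraries lay below all control libraries, and control replicate 1 was the highest of the 6. The log2 fold change was −0.98 ± 0.24 (SE), with an adjusted p of 0.176 by edgeR and of 0.00951 by DESeq2. Idi1, which interconverts the isoprenoid units, had 3.75, 7.01 and 7.08 CPM after CTT, against 16.9, 13.8 and 9.20 CPM in control. The groups did not overlap, with a log2 fold change of −1.16 ± 0.33 and an edgeR adjusted p of 0.243. Acat2 (acetoacetyl-CoA thiolase, −0.75), Mvk (mevalonate kinase, −0.59) and Mvd (mevalonate diphosphate decarboxylase, −0.42) also did not overlap. Hmgcs1, the synthase that commits carbon to the pathway, overlapped, at 25.6, 30.4 and 37.1 CPM after CTT, against 30.2, 49.1 and 48.2 CPM in control. Pmvk (phosphomevalonate kinase) had a log2 fold change of 0.01, with 23.8 ± 1.98 CPM after CTT and 23.6 ± 2.22 CPM in control (SD, n = 3 each).

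From squalene to cholesterol, 10 of 11 genes had a negative log2 fold change (median −0.30). Of these, 6 were lower without overlap, against 11% of all tested genes, and 3 had an unadjusted p under 0.05, against 5.74%. Those 3 are the first steps of this stretch: Fdft1 (squalene synthase), Sqle (squalene epoxidase) and Lss (lanosterol synthase). Lss (chr10:76531565-76557139) stood at 11.3, 12.1 and 11.3 CPM after CTT, against 23.5, 20.5 and 17.4 CPM in control. Its CTT libraries lay within 1 CPM of each other and below every control library, with a log2 fold change of −0.82 ± 0.16, an adjusted p of 0.108 by edgeR and one of 0.00137 by DESeq2. Sqle had 7.80, 12.7 and 14.2 CPM after CTT, against 42.0, 23.1 and 25.0 CPM in control. Its groups did not overlap either, and control replicate 1 was again the highest (−1.38 ± 0.31, edgeR adjusted p = 0.15, DESeq2 adjusted p = 0.00163). Fdft1 had 14.7, 19.6 and 18.7 CPM after CTT, against 45.3, 29.8 and 28.4 CPM in control, with a log2 fold change of −0.97 ± 0.23 (edgeR adjusted p = 0.158, DESeq2 adjusted p = 0.00641). The later enzymes lay nearer to 0. Cyp51 (lanosterol demethylase, −0.51), Nsdhl (a sterol dehydrogenase, −0.33) and Dhcr7 (the reductase of the last step, −0.27) did not overlap, while Msmo1, Hsd17b7, Tm7sf2, Ebp and Sc5d overlapped, with log2 fold changes of −0.30 to 0.09.

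**Figure D2:**
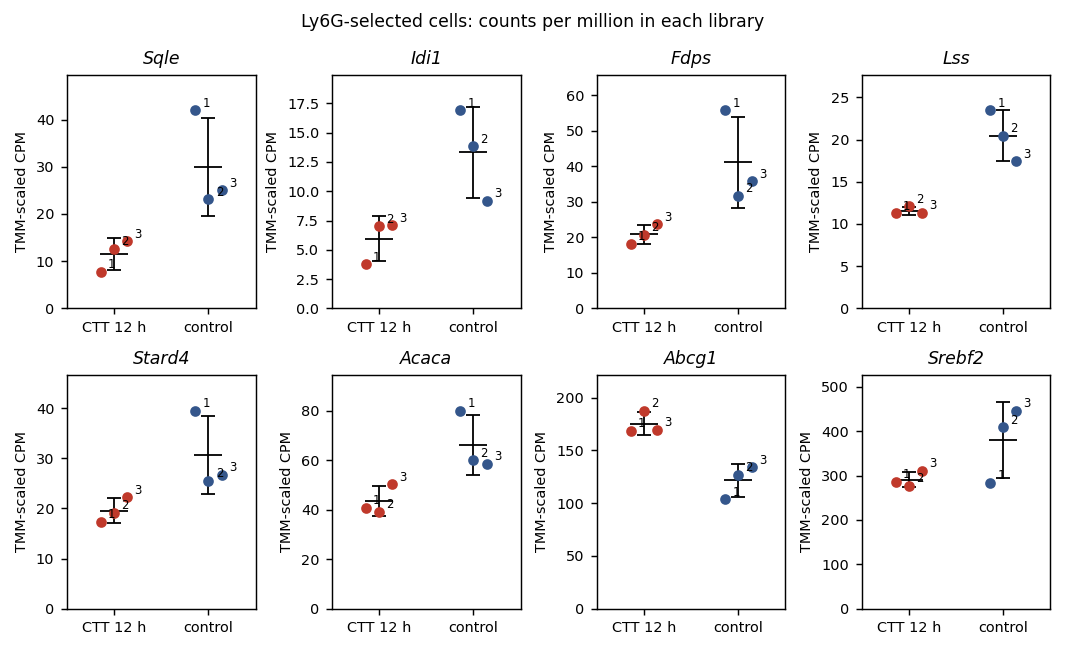
TMM-scaled CPM of 8 genes in each Ly6G-selected library (points, numbered by replicate), with the mean and SD of each group of 3. In Fdps, Sqle and Lss the 3 CTT libraries lie below the 3 control libraries, and in Abcg1 they lie above, at 168 to 188 CPM against 104 to 134 CPM.

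Among the regulators, Srebf1 and the sterol transfer protein Stard4 had lower values after CTT and did not overlap. Stard4 had 17.3, 19.1 and 22.2 CPM after CTT, against 39.5, 25.5 and 26.7 CPM in control (−0.65 ± 0.21, edgeR adjusted p = 0.307). Srebf1, the SREBP of fatty acid genes, had 63.8, 68.7 and 72.3 CPM after CTT, against 111, 81.3 and 85.5 CPM in control (−0.44 ± 0.15). Srebf2, the SREBP of sterol genes, overlapped, because control replicate 1 lay among the CTT libraries: it had 285, 277 and 310 CPM after CTT, against 284, 409 and 446 CPM in control. Scap (−0.01) and Insig1 (0.13) overlapped and lay near 0.

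Of the fatty acid genes, Acaca (acetyl-CoA carboxylase, the rate-limiting step) and Fasn (fatty acid synthase) were lower after CTT without overlap. Acaca had 40.8, 39.1 and 50.3 CPM after CTT, against 80.1, 60.0 and 58.5 CPM in control (−0.61 ± 0.18, edgeR adjusted p = 0.251), and Fasn had 141, 142 and 149 CPM, against 228, 170 and 176 CPM (−0.41 ± 0.14, edgeR adjusted p = 0.325). Acly (ATP citrate lyase), which supplies cytosolic acetyl-CoA, had a smaller difference of −0.14 without overlap. The desaturase Scd1 differed in direction from them, at 1213, 1043 and 1037 CPM after CTT, against 480, 1081 and 1179 CPM in control. Its positive log2 fold change of 0.27 rested on control replicate 1, without which it was −0.04.

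The LXR genes lay on the other side of 0, with 4 of 5 log2 fold changes positive (median 0.29). Abcg1, a sterol exporter to lipoprotein particles, had 168, 188 and 170 CPM after CTT, against 104, 127 and 134 CPM in control. The groups did not overlap (0.53 ± 0.13, adjusted p of 0.192 by edgeR and 0.0479 by DESeq2). Abca1, the exporter to lipid-poor apolipoprotein, had 168, 132 and 137 CPM after CTT, against 82.9, 126 and 121 CPM in control (0.40 ± 0.19, edgeR adjusted p = 0.376), and Nr1h2 (LXR beta) had 129, 118 and 119 CPM, against 98.6, 99.2 and 113 CPM (0.23 ± 0.11). Neither of these overlapped, whereas Mylip (0.29) and Nr1h3 (LXR alpha, −0.24) did. Control replicate 1 was the lowest of the 6 libraries in 4 of the 5 LXR genes and the highest in 9 of the 18 sterol enzymes. CTT replicate 1 was the lowest of the 6 in 14 of the 18.

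Since control replicate 1 carried the most erythroid and cell cycle transcripts, the comparison was also made without it. The median of the 18 sterol enzymes was then −0.44, as with all libraries, 17 of 18 were negative, and 13 did not overlap, against 16.8% of all tested genes lower without overlap. The single largest values shrank: Sqle to −1.05, Idi1 to −0.95, Fdft1 to −0.72 and Fdps to −0.69. Lss, at −0.71 (edgeR adjusted p = 0.0467), and Srebf2, at −0.55 (adjusted p = 0.0236), fell past the threshold, against 0.233% of all tested genes called lower, and no member rose, against 1.93%. The LXR median was 0.20, and Abca1 was at 0.24 and Abcg1 at 0.43. Summed over the 18 sterol enzymes, the CTT libraries held 279, 327 and 361 CPM, against 484, 423 and 442 CPM in the control libraries, so that every control library lay above every CTT library. All 11 neutrophil markers had positive log2 fold changes, of which 2 passed the test. The red pulp macrophage markers summed to 3105 to 3964 CPM after CTT and 3174 to 3442 CPM in control. Of the 8 dendritic cell markers, 5 were lower and 1 higher without overlap, against 11% and 13.6% of all tested genes. Their median log2 fold change was −0.435, against 0.358 for the 8 monocyte markers and −0.211 for the 7 T cell markers tested. No marker of these 3 lists passed the test. With all libraries, the 12 erythroid markers and 16 cell cycle genes all had negative log2 fold changes (medians −3.15 and −1.35), and none passed. Without control replicate 1, the erythroid sums were 2358 and 768 CPM in control replicates 2 and 3. They were 403 to 867 CPM after CTT. The part of these cell markers in the sterol values was not tested.

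**Figure D3:**
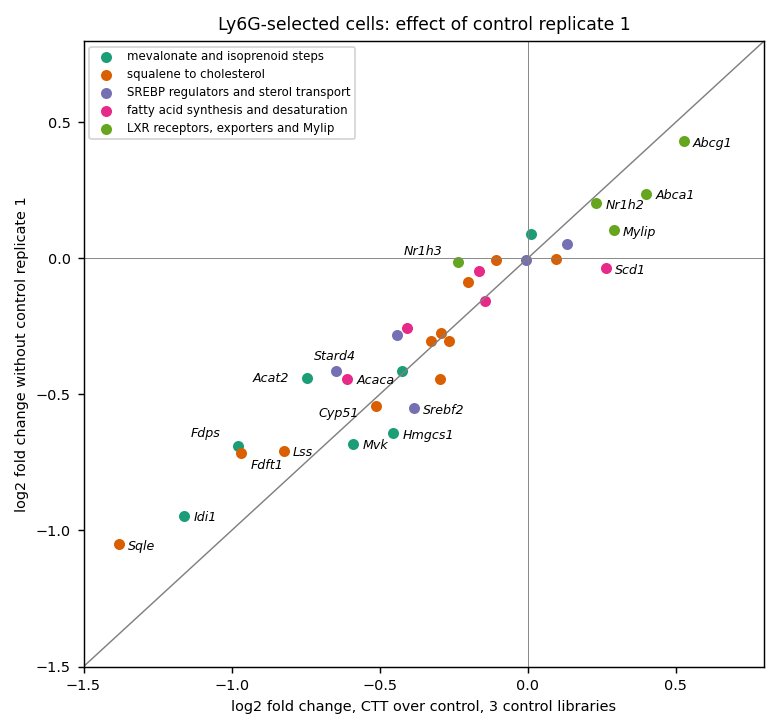
Log2 fold change of each of the 33 genes in Ly6G-selected cells (CTT over control) with all 3 control libraries (horizontal axis) and without control replicate 1 (vertical axis), coloured by role; the diagonal marks equal values. Sqle, Idi1, Fdps and Fdft1 lie above the diagonal, nearer to 0 without that library, while Srebf2 and Hmgcs1 lie below it, and Scd1 crosses 0.

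At 5 days after CTT, LXR genes were lower in the CCR2-selected cells of mice given anti-Ly6G than of mice given CTT alone, while the sterol enzymes were centred on 0. By the same edgeR test 2 of the 33 genes rose with anti-Ly6G, Mvd and Fdps, against 10.2% of all tested genes. Another 4 fell, namely Scap, Nr1h3, Abca1 and Mylip, against 5.12%. In 5 genes all anti-Ly6G libraries lay above all libraries of CTT alone and in 8 all lay below, against 20.6% and 15.4% of all tested genes. DESeq2 called 3 members higher, Acly added, and 5 lower, Scd1 added, against 9.05% and 6.99% of all genes, and limma-voom called 2 and 4, against 10.3% and 4.91%. By edgeR the count of rising members was below the share of all genes, and that of falling members above it. The median log2 fold change was −0.06 over the 33 genes and 0.00 over all tested genes.

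The LXR genes held 3 of the 4 falls, and 4 of the 5 were lower without overlap (median −0.43). Over all tested genes 5.12% fell and 15.4% were lower without overlap. Mylip (chr13:45389742-45411940) had 65.3, 68.7 and 74.1 CPM with anti-Ly6G, against 94.1, 92.8 and 93.2 CPM with CTT alone. The libraries of CTT alone lay within 2 CPM of each other and above all others, with a log2 fold change of −0.43 ± 0.06 and an edgeR adjusted p of 0.00306. Nr1h3, the LXR of macrophages and liver (chr2:91184061-91202829), had 81.3, 87.5 and 81.3 CPM with anti-Ly6G, against 130, 102 and 110 CPM with CTT alone (−0.45 ± 0.09, edgeR adjusted p = 0.0123). Abca1 (chr4:53030789-53159988) had 166, 142 and 140 CPM with anti-Ly6G, against 278, 190 and 184 CPM with CTT alone. Its groups did not overlap, but replicate 1 of CTT alone stood well above the rest (−0.55 ± 0.15, edgeR adjusted p = 0.0420). Abcg1 had the same shape and did not pass, at 183, 194 and 167 CPM with anti-Ly6G, against 274, 205 and 197 CPM with CTT alone (−0.31 ± 0.12, edgeR adjusted p = 0.122). Nr1h2 overlapped, at 0.05.

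**Figure D4:**
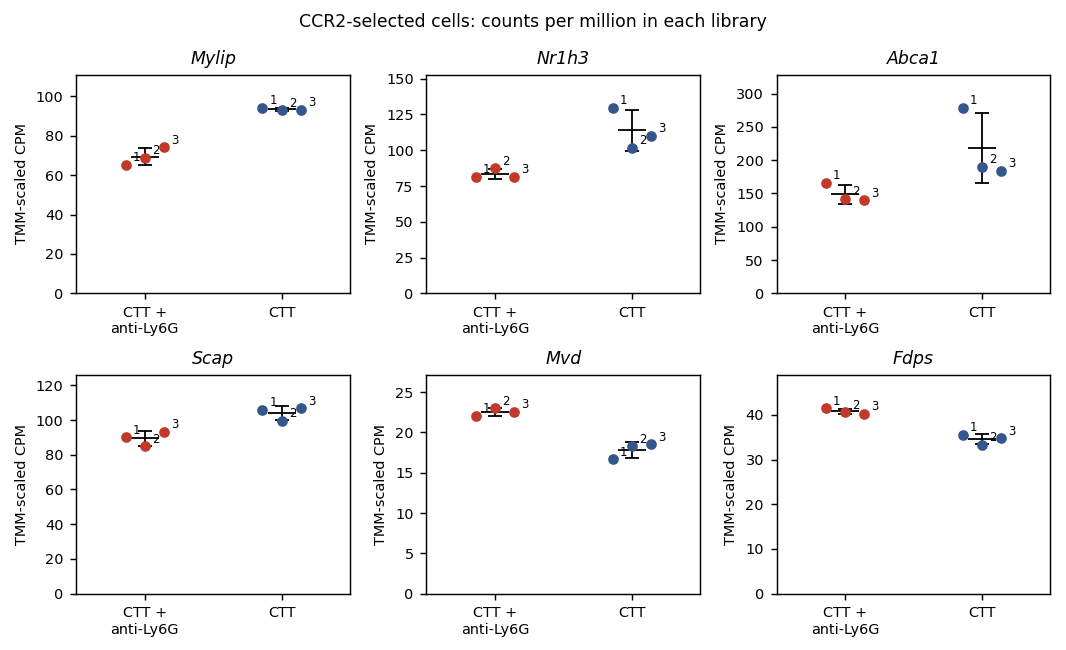
TMM-scaled CPM of the 6 genes called in the CCR2-selected cells, in each library (points, numbered by replicate), with the mean and SD of each group of 3. In Mylip, Nr1h3, Abca1 and Scap the anti-Ly6G libraries lie below those of CTT alone and in Mvd and Fdps above, and replicate 1 of CTT alone is the highest in Nr1h3 and Abca1.

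Red pulp macrophage markers moved with these genes. Their 11 members summed to 8554, 8613 and 7886 CPM with anti-Ly6G, against 16480, 9918 and 11410 CPM with CTT alone, and 8 of the 11 fell (median −0.71). Replicate 1 of CTT alone was the highest library in this sum, as it was in the sum of the 5 LXR genes, which was 626, 608 and 585 CPM with anti-Ly6G, against 901, 702 and 704 CPM with CTT alone. The neutrophil markers went the other way, at 12620 to 16990 CPM with anti-Ly6G and 4643 to 6323 CPM with CTT alone, and 10 of the 11 rose, while 6 of the 8 monocyte markers rose and 1 fell. Without replicate 1 of CTT alone, Mylip was at −0.42 (edgeR adjusted p = 0.00237), Nr1h3 at −0.35 (0.00523) and Abca1 at −0.33 (0.0144), all still past the threshold, and Abcg1 was at −0.15. Other libraries did end calls: Nr1h3 missed the threshold without anti-Ly6G replicate 1 (edgeR adjusted p = 0.0561) or 3 (0.0506), and Abca1 without anti-Ly6G replicate 1 (0.0735), 2 (0.126) or 3 (0.123), while Mylip passed whichever library was left out. Further lists moved as well. The 16 cell cycle genes summed to 2128 to 2417 CPM with anti-Ly6G and 1694 to 1931 CPM with CTT alone, and 9 rose. All 10 B cell markers had negative log2 fold changes (2956 to 4094 CPM with anti-Ly6G and 3859 to 5626 CPM with CTT alone, 2 fell), as did all 12 erythroid markers (832 to 1358 CPM with anti-Ly6G and 1422 to 2255 CPM with CTT alone, 2 fell). The part of these cell markers in the differences was not tested.

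**Figure D5:**
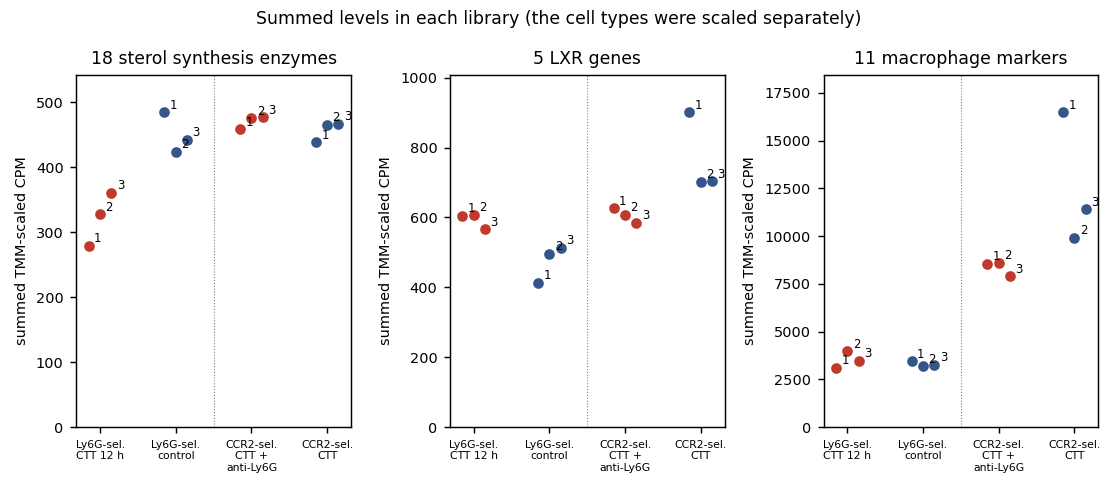
Summed TMM-scaled CPM of the 18 sterol synthesis enzymes, the 5 LXR genes and the 11 red pulp macrophage markers in each of the 12 libraries (points, numbered by replicate); the Ly6G-selected and CCR2-selected libraries were scaled separately. Among the Ly6G-selected libraries the sterol sum is 279 to 361 CPM after CTT and 423 to 484 CPM in control. Replicate 1 of CTT alone is the highest CCR2-selected library in the LXR and macrophage sums.

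The sterol enzymes of the CCR2-selected cells summed to 458, 475 and 477 CPM with anti-Ly6G, against 439, 465 and 467 CPM with CTT alone, and 9 of the 18 had positive and 9 negative log2 fold changes. Mvd (chr8:122433596-122443422) had 22.0, 23.0 and 22.5 CPM with anti-Ly6G, against 16.6, 18.3 and 18.5 CPM with CTT alone (0.34 ± 0.09, edgeR adjusted p = 0.0311). Fdps had 41.5, 40.6 and 40.3 CPM with anti-Ly6G, against 35.5, 33.3 and 34.8 CPM with CTT alone (0.24 ± 0.06, edgeR adjusted p = 0.0398). Both were tight within groups and did not overlap, but Mvd lost its call when any of the 6 libraries was left out, and Fdps kept it only without replicate 1 of CTT alone. Ebp, the isomerase of the later steps, had 49.7, 42.2 and 42.3 CPM with anti-Ly6G, against 37.3, 36.4 and 38.5 CPM with CTT alone, and did not pass (0.26 ± 0.08, edgeR adjusted p = 0.0672). In Lss (−0.24) and Hsd17b7 (−0.30) the anti-Ly6G libraries were lower without overlap, with edgeR adjusted p of 0.142 and 0.151. Hmgcs1 (0.03), Sqle (−0.16) and Idi1 (−0.08) overlapped.

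All 5 regulators had negative log2 fold changes in the CCR2-selected cells, and Scap alone passed. Scap (chr9:110333288-110384949) had 90.1, 84.9 and 93.4 CPM with anti-Ly6G, against 106, 99.7 and 107 CPM with CTT alone (−0.22 ± 0.06, edgeR adjusted p = 0.0458). The groups did not overlap, and the call was lost when any 1 of the 6 libraries was left out. Srebf2 had 310.5, 320.5 and 350.3 CPM with anti-Ly6G, against 314.6, 381.9 and 375.6 CPM with CTT alone, and overlapped (−0.13). Of the fatty acid genes, Acly had 288, 271 and 289 CPM with anti-Ly6G, against 249, 252 and 250 CPM with CTT alone, a difference without overlap that did not pass (0.18 ± 0.06, edgeR adjusted p = 0.0632). Scd1 had 267, 308 and 384 CPM with anti-Ly6G, against 319, 491 and 485 CPM with CTT alone (−0.43 ± 0.18, edgeR adjusted p = 0.135). Its lowest library of CTT alone, replicate 1, overlapped with the anti-Ly6G libraries, and without it the log2 fold change was −0.61 (adjusted p = 0.00612). Without that library Lss and Srebf2 were also called lower, while Mvd and Scap were not called, which made 1 gene higher and 6 lower, against 12.5% and 8.64% of all tested genes. Without it 5 members lay higher and 12 lower without overlap, against 26.6% and 24.8%.

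Levels between genes were compared on the deposited FPKM, which divide by gene length. Scd1 had the highest level of the 33 in each of the 4 groups, at 223 ± 25.7 FPKM in Ly6G-selected cells after CTT and 193 ± 81.6 FPKM in control, and at 65.5 ± 12.7 FPKM in CCR2-selected cells with anti-Ly6G and 90.4 ± 21.4 FPKM with CTT alone (SD, n = 3 each). Nr1h2 and Srebf2 came next, at 52.3 to 60.2 FPKM and 50.7 to 69.1 FPKM over the group means, and their order changed between groups. In CCR2-selected cells with anti-Ly6G, Scd1, Nr1h2 and Srebf2 lay within the spread of Scd1. Hsd17b7, a reductase of the sterol demethylation steps, had the lowest level in all 4 groups, at 1.43 to 2.21 FPKM. Nr1h3 was at 18.8 and 23.1 FPKM in the Ly6G-selected groups (CTT, control) and at 37.4 and 52.1 FPKM in the CCR2-selected groups (anti-Ly6G with CTT, CTT alone). The selections differ in cell type, time and treatment, so no test was made between them.

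A further 46 genes of the same pathways gave a wider view. In the Ly6G-selected cells 0 of the 46 rose and 0 fell by edgeR, and at an unadjusted p under 0.05, 1 was higher and 5 were lower. Over all tested genes the shares were 0.567% and 0% by the adjusted p and 8.28% and 5.74% by the unadjusted p. In the CCR2-selected cells 9 of the 46 rose with anti-Ly6G and 1 fell, against 10.2% and 5.12% of all tested genes. Soat1, which esterifies cholesterol for storage, had 151.5, 133.8 and 136.4 CPM with anti-Ly6G, against 112, 94.6 and 101 CPM with CTT alone (0.46 ± 0.08, edgeR adjusted p = 0.00663). Elovl6, a fatty acid elongase, had 15.7, 13.3 and 13.2 CPM with anti-Ly6G, against 9.24, 9.34 and 7.15 CPM with CTT alone (0.71 ± 0.14, edgeR adjusted p = 0.0125). Both had groups that did not overlap, as did Erlin1, an endoplasmic reticulum protein of sterol control (0.40, edgeR adjusted p = 0.0110), and Aacs, which makes acetoacetyl-CoA (0.35, edgeR adjusted p = 0.0239). The gene that fell was Cyb5r3, the reductase of cytochrome b5, at 77.4 ± 0.94 CPM with anti-Ly6G and 90.0 ± 0.66 CPM with CTT alone (−0.22, edgeR adjusted p = 0.0268). Soat1 passed whichever library was left out. Elovl6 missed the threshold without anti-Ly6G replicate 1 and Erlin1 without replicate 3 of CTT alone. Aacs passed only without replicate 1 or 2 of CTT alone, and Cyb5r3 only without replicate 1 of CTT alone.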

How the data were processed

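Total RNA (TRIzol) was sequenced from VAHTS Universal V6 libraries, according to the labels' protocols. The submitters' processing notes name HISAT2, HTSeq and the mm10 build. Their versions, the annotation and the strandedness of counting are unstated there, so genes overlapping on opposite strands may share reads. Raw counts, whole numbers deposited by the authors for each cell type separately, were the input, and the FPKM values the authors deposited were used here for levels between genes and in alternatives.

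Each table was fitted whole in R 4.3.3 with edgeR 4.0.16: filterByExpr, TMM scaling and the two-sided quasi-likelihood F test, Benjamini-Hochberg adjusted over the whole table. Only the 6 libraries of a comparison entered its fit. CPM are TMM-scaled within a table, and the standard error is the absolute log2 fold change divided by the square root of F. The biological coefficient of variation common to all genes came to 0.275 for Ly6G-selected and 0.114 for CCR2-selected libraries. The fits were tested on simulated data, in which every gene had that common coefficient and no library stood apart. The Ly6G-selected libraries differ from that, so the simulation does not show which differences could be found in them. Every library held at least 30942849 counts, and in members with few reads (as few as 69, in Tm7sf2) counting error is part of the spread between libraries.

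The members, roles, other lists, tests and alternatives were chosen with earlier results of these data known, and no list was tested as a set. Genes named in full were those past the threshold and the smallest p of each role (Fdps, Lss, Stard4, Acaca, Abcg1 in Ly6G-selected cells; Mvd, Ebp, Scap, Acly, Mylip in CCR2-selected cells). Sqle, Idi1, Fdft1, Hmgcs1, Srebf1, Srebf2, Fasn, Scd1, Nr1h2 and Abca1 in Ly6G-selected cells were chosen after their values were seen, as were Abcg1, Srebf2 and Scd1 in CCR2-selected cells. Alternatives were 3 other scalings, 2 other filters, DESeq2 1.42.0, limma-voom and limma-trend on log2 FPKM (limma 3.58.1, pseudocount 1 or 0.1), a replicate block and leaving out each library. All 33 genes matched the RefSeq GRCm38.p6 table for coordinates. The result of 1 other pathway gene is not reported here. Promoters came from RefSeq, and 0 value columns were left out.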

Additional observations from a re-analysis of the deposited data

How the results depend on the processing

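Each comparison was repeated under 11 other settings and with each of its 6 libraries left out. In Ly6G-selected cells DESeq2 called 1 member higher (2.62% of all genes) and 5 lower (0.631%), and 1 of the 46 other pathway genes lower, while limma-voom called 0 members. Leaving out a library gave 0 to 2 members lower and 0 higher, and 0 to 1 other pathway genes either way, against 0% to 1.93% of all tested genes higher and 0% to 0.233% lower. The median ranged from −0.43 to −0.21 over the 33 genes and from −0.54 to −0.32 over the sterol enzymes. In CCR2-selected cells 1 member was called higher with DESeq2 size factors, library totals or no filter and 0 with upper-quartile scaling, against 2, and DESeq2 called 2 other pathway genes lower. Leaving out a library gave 0 to 1 members higher and 1 to 6 lower, 2 to 9 other pathway genes higher and 0 to 2 lower, against 5.22% to 12.5% of all tested genes higher and 1.31% to 8.64% lower, and medians of −0.09 to −0.02 and −0.02 to 0.02. Mylip passed in all 17 alternatives (adjusted p 5.25e-07 to 0.0202) and Nr1h3 in 15, missing without anti-Ly6G replicate 1 (0.0561) or 3 (0.0506). Abca1 passed in 12, missing on log2 FPKM with either pseudocount (0.104 and 0.0831) and without anti-Ly6G replicate 1, 2 or 3 (0.0735, 0.126 and 0.123). Mvd and Scap passed in 10 each and Fdps in 8. The cause was not tested.

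The main fit did not pair libraries by replicate number. Correlations of same-numbered deviations were 0.199, 0.00548 and 0.189 in Ly6G-selected and 0.0651, −0.0267 and 0.0868 in CCR2-selected cells. Different-numbered ones ran from −0.22 to 0.156 and from −0.104 to 0.0347. In both selections the same-numbered values of replicates 1 and 3 lay above all different-numbered ones, and that of replicate 2 did not. Whether the numbers pair the libraries could not be settled. With the replicate block 0 members were called in Ly6G-selected cells (0.0306% of all genes higher, 0.00766% lower), and 2 were higher (11.7%) and 5 lower (7.85%) in CCR2-selected cells, Scd1 added (−0.42, edgeR adjusted p = 0.0150).

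Of the 33 genes, 28 in Ly6G-selected and 23 in CCR2-selected cells kept their sign in every alternative. Scd1 (0.27) and Insig1 (0.13) in Ly6G-selected cells were the largest whose sign changed. In Ly6G-selected cells Pmvk was at −0.0456 with library totals and −0.0409, −0.0462 and −0.0409 on log2 FPKM (pseudocount 1, 0.1 and with a minimum of 1 FPKM). With a library left out Pmvk ranged from −0.049 to 0.0904, Scap from −0.0496 to 0.0463, Insig1 from −0.142 to 0.326, Sc5d from −0.00387 to 0.185 and Scd1 from −0.0366 to 0.495. In CCR2-selected cells upper-quartile scaling gave −0.0147 for Hmgcs1, −0.00437 for Tm7sf2 and −0.026 for Nsdhl, and Nsdhl was at −0.00612 with library totals and −0.00461, −0.00503 and −0.00461 on log2 FPKM. With a library left out Acaca ranged from −0.0104 to 0.138, Acat2 from −0.193 to 0.0458, Cyp51 from −0.111 to 0.0115, Dhcr7 from −0.054 to 0.00234, Fasn from −0.128 to 0.0157, Mvk from −0.128 to 0.0317, Nsdhl from −0.0262 to 0.055, Sc5d from −0.0698 to 0.188 and Tm7sf2 from −0.0471 to 0.141. With 3 libraries a group of unstated numbers of mice, small differences in the more variable Ly6G-selected libraries could not be resolved. Larger ones could be missed there too, since Sqle at −1.38 and Idi1 at −1.16 did not pass (edgeR adjusted p = 0.15 and 0.243).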
